A study of Mus musculus with 6 samples.

Results

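A family of 6 CXC chemokine genes, the interferon-inducible and homeostatic genes Cxcl9, Cxcl10, Cxcl11, Cxcl12, Cxcl14 and Cxcl16, were examined in bone marrow-derived macrophages (BMDMs) after co-culture with ID8, a mouse ovarian cancer cell line. They were taken by symbol from a table of 54532 genes, and all 6 were found. The tumour cells were exposed beforehand to 40 µM cisplatin, which damages DNA, for 3 libraries and to the buffer PBS for the other 3, without cisplatin. The BMDMs of both groups were grown from C57BL/6 bone marrow monocytes. How they were parted from the tumour cells, the time in co-culture and any growth factor are not given in the sources used here, and BMDMs grown alone were not analysed here. Levels are given as FPKM, which counts fragments for each kilobase of a gene and each 1000000 reads.

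Chemokines are small secreted proteins that guide migrating leukocytes through receptors on the cell surface. Cxcl9, Cxcl10 and Cxcl11 are induced by interferons and share the receptor Cxcr3, carried mainly by activated T cells and natural killer cells. Cxcl12 and Cxcl14 are made without such a stimulus in many tissues, and Cxcl12 acts through Cxcr4 and is scavenged by Ackr3. Cxcl16 is made as a membrane protein on macrophages and dendritic cells, is shed by the proteases Adam10 and Adam17, and binds Cxcr6.

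Between 15776238 and 17924686 reads per library could be recovered from the deposited values. Macrophage genes were present in every library, but so were genes of other cells. The summed level of 10 macrophage genes was 1637 to 1648 FPKM with PBS and 4202 to 4355 FPKM with cisplatin. Most of it was Lyz2, also a neutrophil gene, at 1161 and 3459 FPKM. Of the 8 that passed the filter of 1 FPKM in both groups, 2 were called higher, where 4.67% of all tested genes were, and none of them with scaling by Y-linked genes, under which 5 turned sign. Mrc1 and Mertk passed it only through cisplatin, at 10.8 to 11.7 and 1.52 to 1.84 FPKM, and were under 1 FPKM with PBS. The summed level of 13 ID8 and mesothelial genes was 1078 to 1174 FPKM with PBS and 195 to 210 FPKM with cisplatin. The largest part of it was Krt19, at 588 FPKM with PBS and 51.1 FPKM with cisplatin. Of the 8 tested genes of that list 7 were called lower, against 11.3% of all tested genes. Krt7, Lrrn4, Epcam, Igfbp5 and Muc16 stayed under 1 FPKM in every library. Of these, Epcam (0.217 to 0.293 FPKM) and Igfbp5 (0.0036 to 0.0099 FPKM) had higher means with cisplatin. The neutrophil genes were also present, with 4530 to 4670 FPKM with PBS and 7959 to 8228 FPKM with cisplatin over 6 genes. The X-inactivation transcript Xist went from a mean of 42.7 to 7.79 FPKM and the Y-linked gene Ddx3y from 8.10 to 19.2 FPKM. In RNA from mixed cells, fewer cells of a type and less RNA per cell cannot be told apart, and the part of these cells in the chemokine values was not tested.

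Cxcl10 was the most abundant gene of the family with PBS and lost most of its transcript with cisplatin. It lies on chromosome 5 (ENSMUSG00000034855, 92346638 to 92348889, minus strand, GRCm38). With PBS its level was 57.1, 59.6 and 58.7 FPKM in replicates 1, 2 and 3. With cisplatin it was 5.12, 4.27 and 4.44 FPKM. The groups did not overlap, and the spread within each was small beside the gap between them. The mean was 58.5 ± 1.27 FPKM with PBS and 4.61 ± 0.45 FPKM with cisplatin (SD, n = 3 each), and so fell 12.7-fold. On log2(FPKM + 1) the fold change was -3.41 (SE 0.062, 95% interval -3.56 to -3.26, limma, adjusted p = 7.29e-08). Among 13441 tested genes 40 fell further, and 11.3% were called lower. To be called, a gene had to pass 0.05 by adjusted p and to differ at least 2-fold, that is by 1 on the log2 scale. Among all genes with a value above 0, Cxcl10 stood between the percentiles 96.6 and 96.8 with PBS and between the percentiles 67.0 and 69.1 with cisplatin. The Art3 gene on the opposite strand spans Cxcl10 and shares 133 exonic bases with it, 5.91% of its exons, and had at most 8 reads in any library.

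Cxcl9 and Cxcl11, the other ligands of Cxcr3, lie beside Cxcl10 on chromosome 5 and were read far less often. Both stayed under 1 FPKM in most libraries and were not tested on the FPKM scale. Cxcl9 (ENSMUSG00000029417, 92321347 to 92328079) had 35, 25 and 39 reads with PBS. In the cisplatin libraries it had 3, 0 and 0 reads. The groups did not overlap, and nearly every read came from PBS libraries. The PBS to cisplatin ratio, per total reads, was 31.8, with a 95% exact binomial counting interval of 10.6 to 157. Cxcl11 (ENSMUSG00000060183, 92359544 to 92365485) had 38, 55 and 68 reads with PBS. It had 0, 4 and 1 with cisplatin, a ratio of 31.0 with an interval of 13.0 to 96.9. The table lists Cxcl11 as a polymorphic pseudogene, a gene that is intact in some mouse strains and disrupted in others. A processed pseudogene on the other strand, Gm2673, covers 41.7% of its exons and was listed at 0 in all libraries. For comparison the ratio of Cxcl10 was 11.9, with an interval of 10.9 to 13.1. The intervals cover counting error only.

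Because these genes lay below the filter of the FPKM fit, limma voom was run on the recovered reads. It took 15494 genes with a mean of at least 10 reads over the 6 libraries, a choice made after seeing the data. In it 15.5% of genes were called lower and 10.7% higher. Cxcl9 and Cxcl11 reached that mean only through their PBS libraries, where they were high, so their fitted values are given as a description with no test, and they depend on the small count that voom adds. The log2 fold change was -5.06 for each. For Cxcl9 it was -5.97 without cisplatin replicate 1, the only cisplatin library with a read. For Cxcl11 it was -4.25 without cisplatin replicate 1 and -5.87 without cisplatin replicate 2. The fold change of Cxcl10 in the same fit was -3.58 (SE 0.096, limma voom, adjusted p = 4.17e-17). Cxcl10 made up 96.7% to 97.9% of the summed FPKM of the 3 Cxcr3 ligands with PBS. With cisplatin it made up 98.5% to 99.6%.

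**Figure D1:**
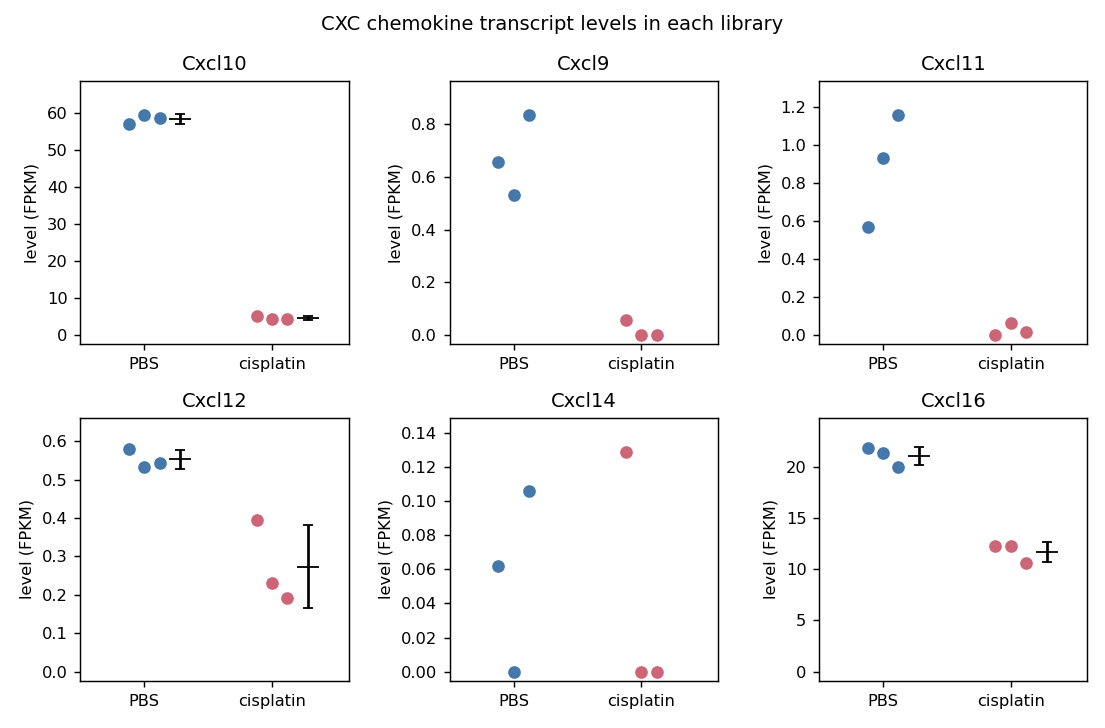
Level in FPKM (vertical axis, a separate linear scale for each gene) of the 6 chemokine genes in the 3 PBS and 3 cisplatin libraries. Points are libraries, and bars give the mean ± SD where no library was at 0. Cxcl10 went from between 57.1 and 59.6 to between 4.27 and 5.12 FPKM, and Cxcl16 from between 20.02 and 21.8 to between 10.6 and 12.3 FPKM.

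The bases just before the gene starts are shown because Cxcl9 and Cxcl10 were lower together while Cxcl14 was near 0 throughout. The RefSeq promoter table for GRCm38.p6 holds 4 of the 6 genes, without Cxcl11 and Cxcl16. In the 250 bases before the start, 3 motifs were sought on both strands. The interferon-stimulated response element (ISRE) was taken as GAAA, any 2 bases and GAAA again, the gamma-activated site (GAS) as TTCNNNGAA, and the NF-κB site by its consensus. Capitals mark every match, and each sequence reads 5′ to 3′ on the strand of the gene.
Cxcl10 (chr5:92348890-92349139, minus strand): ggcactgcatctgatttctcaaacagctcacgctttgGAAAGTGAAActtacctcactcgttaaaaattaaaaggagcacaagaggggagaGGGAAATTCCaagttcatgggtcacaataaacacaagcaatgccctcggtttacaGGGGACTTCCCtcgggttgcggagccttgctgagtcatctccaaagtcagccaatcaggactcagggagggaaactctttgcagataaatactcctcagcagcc
Cxcl9 (chr5:92328080-92328329, minus strand): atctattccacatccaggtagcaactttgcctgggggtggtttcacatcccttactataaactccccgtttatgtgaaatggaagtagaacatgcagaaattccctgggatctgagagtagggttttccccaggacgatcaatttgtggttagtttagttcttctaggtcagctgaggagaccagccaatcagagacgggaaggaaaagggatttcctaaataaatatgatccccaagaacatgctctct
Cxcl14 (chr13:56296552-56296801, minus strand): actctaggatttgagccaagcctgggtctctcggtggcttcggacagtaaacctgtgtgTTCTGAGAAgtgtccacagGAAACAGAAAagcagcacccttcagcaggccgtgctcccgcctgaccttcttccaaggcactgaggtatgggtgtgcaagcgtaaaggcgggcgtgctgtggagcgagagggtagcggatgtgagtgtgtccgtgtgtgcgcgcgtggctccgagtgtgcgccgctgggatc

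Cxcl10 held 1 ISRE match, 213 to 204 bases before the start, and 2 stretches of NF-κB matches. One of these, GGGAAATTCC, lay 159 to 150 bases before the start. The other, 104 to 94 bases before it, is made of overlapping matches on both strands. Cxcl9 and Cxcl12 held no match to any of the 3 patterns in this window. Cxcl14, with at most 4 reads in a library, held 1 ISRE match (GAAACAGAAA) and 1 GAS match (TTCTGAGAA). Of all 32851 promoters in the table, 2.98% held an ISRE match, 7.02% a GAS match and 7.25% an NF-κB match. A match describes the letters only, and its use in these cells was not measured.

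**Figure D2:**
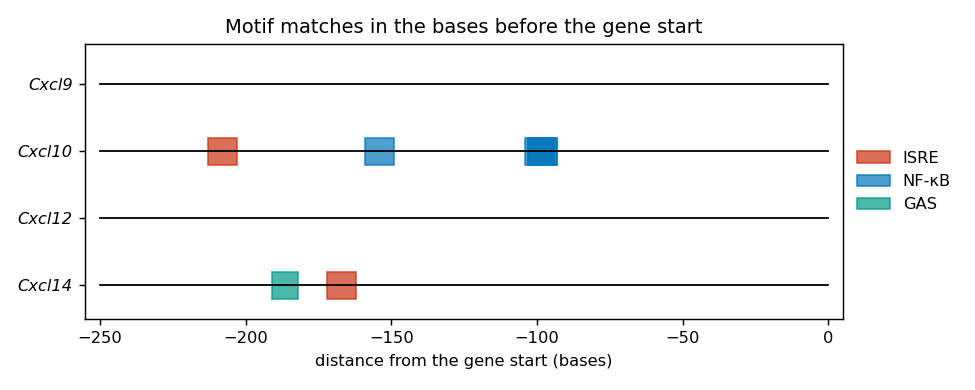
Motif matches (coloured boxes) along the 250 bases before the start of Cxcl9, Cxcl10, Cxcl12 and Cxcl14, with the distance from the gene start in bases on the horizontal axis. Cxcl10 holds 1 ISRE match and 2 NF-κB stretches, and Cxcl9 and Cxcl12 hold none.

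Cxcl16 was lower by less. It lies on chromosome 11 (ENSMUSG00000018920, 70453983 to 70459984, minus strand). Its level was 21.8, 21.3 and 20.02 FPKM with PBS. With cisplatin it was 12.3, 12.2 and 10.6 FPKM. All cisplatin libraries lay below all PBS libraries, and 1767 reads in the cisplatin group and 3107 in the PBS group lay behind these values. The means were 21.0 ± 0.92 and 11.7 ± 0.97 FPKM (SD, n = 3 each), with a log2 fold change of -0.80 (SE 0.067, 95% interval -0.96 to -0.64, limma, adjusted p = 4.61e-05). The adjusted p passed and the fold change did not, and by the adjusted p alone 35.1% of tested genes were lower and 32.9% higher. Scaling the libraries by 4 Y-linked genes, which moved the median of all genes from -0.0011 to -0.83, gave Cxcl16 a log2 fold change of -1.73 and thus a call. Zmynd15, on the other strand, shares 552 exonic bases with Cxcl16, 18.3% of its exons. Zmynd15 stood at 28.7 ± 0.32 FPKM with PBS and 6.87 ± 0.49 FPKM with cisplatin (SD, n = 3 each), and was called lower (-1.92, limma, adjusted p = 2.78e-07). No source used here says if reads were counted by strand, and how reads on the shared bases were assigned was not tested.

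Cxcl12 and Cxcl14 had few reads in either group. Cxcl12 lies on chromosome 6 (ENSMUSG00000061353, 117168535 to 117181367, plus strand). It had 84, 68 and 69 reads with PBS. It had 55, 31 and 26 reads with cisplatin. Cisplatin replicate 1 was the nearest to the PBS libraries, and the groups did not overlap. The levels were 0.553 ± 0.024 and 0.273 ± 0.11 FPKM (SD, n = 3 each), below the filter of the FPKM fit. In the fit on reads the log2 fold change was -0.99 (SE 0.26, limma voom, adjusted p = 0.00212), just short of the fold threshold, where 32.0% of genes were lower and 37.8% higher by the adjusted p alone. Without PBS replicate 2 it was -1.01 (limma voom, adjusted p = 0.003) and without cisplatin replicate 1 it was -1.29 (limma voom, adjusted p = 0.000587), both past it. Without cisplatin replicate 3 it was -0.77 (limma voom, adjusted p = 0.02). Scaling by Y-linked genes also took it past the threshold on reads, where the median of all genes was -0.92. Of genes that mark the stromal cells in which Cxcl12 is best known, Dcn went from 54.1 ± 2.62 to 16.2 ± 0.84 FPKM (SD, n = 3 each). Col1a1 stood at 2.97 FPKM with PBS and 1.87 FPKM with cisplatin, and Pdgfra at 1.04 and 0.203 FPKM. Pdgfrb lay the other way, at 0.644 FPKM with PBS and 1.004 FPKM with cisplatin, and Col1a2, Col3a1, Lum and Postn stayed below 0.2 FPKM in every library. The summed level of all 8, nearly all of it Dcn, was 56.2 to 60.2 FPKM with PBS and 18.5 to 20.5 FPKM with cisplatin. Their part in the Cxcl12 reads was not tested.

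Cxcl14, on chromosome 13 (ENSMUSG00000021508, 56288643 to 56296551, minus strand), had 2, 0 and 3 reads with PBS. It had 4, 0 and 0 reads with cisplatin. The groups overlapped, and no difference was detectable at this depth, since the PBS to cisplatin ratio of 1.21 had a counting interval of 0.26 to 6.07.

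**Figure D3:**
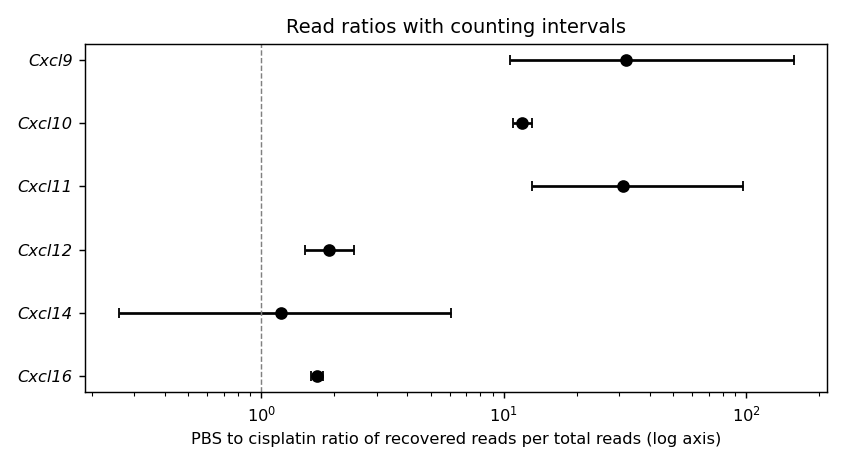
PBS to cisplatin ratio of recovered reads per total reads (horizontal log axis) for each of the 6 genes, the 3 libraries of a group summed. Bars are 95% exact binomial intervals for counting error alone. Those of Cxcl9, Cxcl10 and Cxcl11 lie above 10, those of Cxcl12 and Cxcl16 between 1.51 and 2.41, and that of Cxcl14 crosses 1.

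All cisplatin libraries lay below all PBS libraries in 5 of the 6 genes. The same was true of 37.0% of the genes with a mean of at least 10 reads. By the FPKM fit 2 of the 6 were tested and 1 was called lower, as were 11.3% of all tested genes. The summed level of the 6 genes was 80.8 to 82.9 FPKM with PBS and 15.2 to 18.0 FPKM with cisplatin.

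The leading chemokine changed with the group. With PBS Cxcl10 held 70.7% to 72.2% of the summed level and Cxcl16 24.6% to 27.0%. With cisplatin Cxcl16 held 68.3% to 72.8% and Cxcl10 25.4% to 29.1%. The ratio of Cxcl16 to Cxcl10 was 0.382, 0.358 and 0.341 with PBS. It was 2.40, 2.86 and 2.39 with cisplatin. The mean log2 ratio was thus higher by 2.82 with cisplatin (exact permutation test over libraries, two-sided, p = 0.1, the smallest that 3 libraries against 3 can give). The ratio of Cxcl12 to Cxcl16 was 0.0250 to 0.0272 with PBS. With cisplatin it was 0.0182 to 0.0322, a range that takes in the PBS values (exact permutation test, two-sided, p = 0.4). Below Cxcl10 and Cxcl16, the order of Cxcl9, Cxcl11 and Cxcl12 with PBS differed from library to library and their values overlapped. With cisplatin Cxcl12 came next after those 2 genes in every library. Cxcl14 was last in all PBS libraries.

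Levels per length depend on the gene length used. The length of 2252 bases used for Cxcl10 spans the whole gene, introns included, while its 2 annotated coding transcripts have 1094 and 1353 bases. At the shorter of these its mean would be 120 FPKM with PBS and 9.49 FPKM with cisplatin. Cxcl16, with 3021 bases used and 2699 in its coding transcript, would stand at 23.6 and 13.1 FPKM. The order of these 2 genes in each group is the same by either length. At its shortest coding transcript Cxcl12 would have a mean of 2.41 FPKM with PBS and 1.19 FPKM with cisplatin. By the same rule Cxcl11 would have 2.12 and 0.064 FPKM, and Cxcl9 0.704 and 0.020 FPKM. The order of these lower genes, and whether Cxcl11 and Cxcl12 pass the filter of 1 FPKM, thus depend on the length used.

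**Figure D4:**
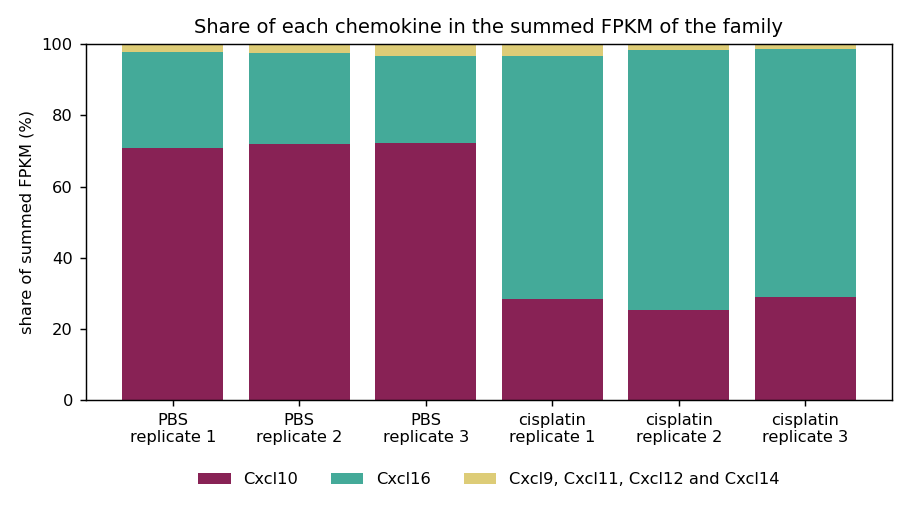
Share in percent (vertical axis) of Cxcl10, Cxcl16 and the other 4 genes together in the summed FPKM of the family, 1 bar per library. Cxcl10 holds 70.7% to 72.2% in the PBS libraries and 25.4% to 29.1% in the cisplatin libraries.

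Genes that carry the interferon signal to Cxcl9, Cxcl10 and Cxcl11 were compared next. Of 20 such genes 18 were tested, 4 were called lower, where 11.3% of all tested genes were, and none higher, and their median log2 fold change was -0.18, against -0.0011 over all tested genes. With scaling by Y-linked genes 11 were called lower, where 38.5% of all tested genes were and the median of all genes was -0.83. The transcription factor gene Irf7 fell furthest, with 102 ± 5.38 FPKM for PBS and 16.1 ± 0.32 FPKM for cisplatin (SD, n = 3 each; log2 fold change -2.59, limma, adjusted p = 7.06e-08). Also called lower were the signal transducer gene Stat2 (log2 fold change -1.92) and the interferon-γ-responsive factor gene Irf1 (-1.29). The receptor genes Ifngr1, Ifngr2, Ifnar1 and Ifnar2 lay between -0.17 and 0.03 and were not called, except Ifngr2 with scaling by Y-linked genes (-1.14). The interferon-γ gene Ifng itself had 0, 2 and 2 reads with PBS and 5, 6 and 5 reads with cisplatin. The interferon-β gene Ifnb1 had 9, 4 and 5 reads with PBS and 0, 3 and 2 reads with cisplatin. Both were below the filter.

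A further 26 interferon-inducible genes outside the chemokine family were all tested and all called lower, where 11.3% of all tested genes were. Their median log2 fold change was -2.35, against -0.0011 over all tested genes. Their changes ran from -1.25 for Mx1, an antiviral GTPase gene, to -4.19 for Ifi44. The fall of Cxcl10 was exceeded by 6 of them. The largest were those of Ifi44, of the antiviral gene Ifit3 (-3.82), and of the GTPase genes Iigp1 (-3.71) and Gbp2 (-3.56). The genes and their directions were known from earlier results of these data, so the count is a description.

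By the distance between log2(FPKM + 1) profiles over the 6 libraries, each centred on its own mean, the nearest of 13440 other genes to Cxcl10 were Clu, Ifit2 and Mgat3. Their distances were 0.078, 0.090 and 0.10, against a median of 4.19 over all genes. Clu encodes the secreted chaperone clusterin and Ifit2 an antiviral protein. The nearest to Cxcl16 were Mastl, Ghr and Pttg1, at 0.049, 0.095 and 0.11, where the median was 1.12. With 2 groups of 3 libraries, such likeness is mostly set by the size of the group difference.

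Of the 5 receptors of the family 3 were tested on FPKM, and Cxcr4 alone passed the filter in both groups. Cxcr4, the receptor of Cxcl12, read 25.3, 24.8 and 23.3 FPKM with PBS. It read 65.6, 63.2 and 58.9 FPKM with cisplatin. It was thus called higher (log2 fold change 1.32, SE 0.053, limma, adjusted p = 1.32e-06), as were 4.67% of tested genes. With scaling by Y-linked genes its fold change was 0.35 and the call was lost. Ackr3, the scavenging receptor of Cxcl12 and Cxcl11, went the other way, with 2.03 ± 0.079 FPKM for PBS and 0.417 ± 0.096 FPKM for cisplatin (SD, n = 3 each). It passed the FPKM filter only through PBS, and Cxcr3 only through cisplatin, so both are tested on reads, of which each group had a mean of at least 10. Ackr3 was called lower there (log2 fold change -2.20, SE 0.26, limma voom, adjusted p = 2.59e-07). Cxcr3 had 19, 10 and 14 reads with PBS. It had 43, 36 and 37 with cisplatin. Its log2 fold change on reads was 1.48 (limma voom, adjusted p = 0.000638), and it was called higher. On log2(FPKM + 1) the fold changes were -1.10 for Ackr3 and 0.64 for Cxcr3. With scaling by Y-linked genes they were -1.58 and 0.19 on the same scale. Cxcr6, the receptor of Cxcl16, had between 14 and 31 reads in all libraries and overlapping groups (limma voom, log2 fold change 0.30, 95% interval -0.44 to 1.05, adjusted p = 0.465). Ackr1 had 0 reads in the PBS libraries and 3, 3 and 2 in the cisplatin libraries. Of the lymphocyte genes 3 of 4 tested were called higher (0 with scaling by Y-linked genes), with a summed level of 111 to 118 FPKM with PBS and 264 to 270 FPKM with cisplatin over 7 genes. Most of it came from the B cell genes Cd79a and Ms4a1, whereas the T cell genes Cd3e and Cd3g stayed below 1 FPKM. Their part in the receptor values was not tested.

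None of the 3 proteases that act on these ligands was called in either direction on the deposited scale. Adam10 stood at 98.1 ± 3.42 and 53.6 ± 1.33 FPKM (SD, n = 3 each, log2 fold change -0.86, limma, adjusted p = 2.28e-06), beside -0.80 for its substrate Cxcl16. Adam17 stood at 49.5 ± 1.16 and 46.9 ± 0.73 FPKM (SD, n = 3 each, log2 fold change -0.075, limma, adjusted p = 0.0862), and its sign turned when reads were used. Scaling by Y-linked genes gave Adam10 -1.84 and Adam17 -1.05, both called lower. Dpp4, which trims the amino terminus of Cxcl9 to Cxcl12, stood at 6.29 ± 0.16 and 8.41 ± 0.55 FPKM (SD, n = 3 each, log2 fold change 0.37, limma, adjusted p = 0.00113), and its sign turned with scaling by Y-linked genes.

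Of the 9 other CXC ligands 7 were tested, 3 were called higher and 2 lower. Over all tested genes 4.67% were called higher and 11.3% lower. Called higher were the platelet-type chemokine genes Pf4 (log2 fold change 3.52) and Ppbp (2.66) and the neutrophil attractant gene Cxcl3 (2.51). Called lower were Cxcl17 (-1.89) and the neutrophil attractant gene Cxcl5 (-1.24). Cxcl5 lost its call with limma treat. Cxcl1 (-0.65) and Cxcl2 (0.98) were not called. Scaling by Y-linked genes gave Cxcl1 -1.62 and a call, and Cxcl2 -0.01. Cxcl2 was called higher on reads (1.07), with scaling by recovered reads (1.07), and without PBS replicate 1 (1.02), PBS replicate 3 (1.01) or cisplatin replicate 3 (1.01). Cxcl13 and Cxcl15 were below the filter, both at 0 reads in every cisplatin library. Their median log2 fold change was 0.98 over the 7 tested genes. Of 7 other ligands that act on lymphocytes, 5 passed the filter in both groups, of which 2 were called lower and none higher, with a median of -0.46, and 11.3% of all tested genes were called lower. These were Ccl5 (-1.70) and Il18 (-1.31), the latter not called with limma treat. Cx3cl1 passed the filter only through PBS, at 6.06 to 6.84 FPKM, and was at 0.558 to 0.878 FPKM with cisplatin.

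**Figure D5:**
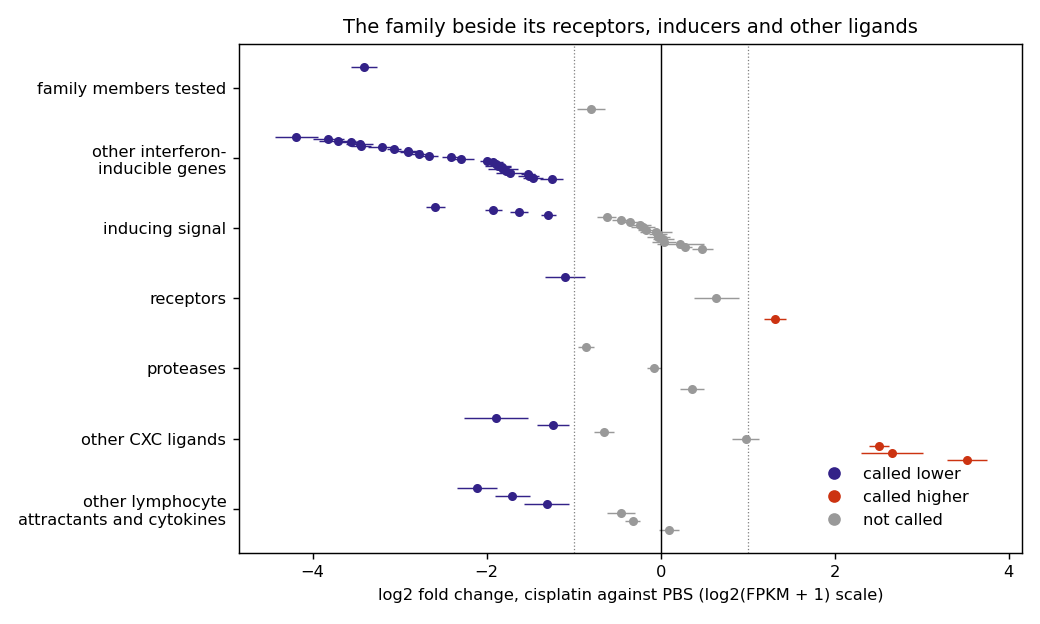
Log2 fold change, cisplatin against PBS, on the log2(FPKM + 1) scale (horizontal axis) of the tested genes of the family and of the 6 lists compared with it. Points are genes with their 95% intervals, coloured by call, and dotted lines mark a log2 fold change of 1 in either direction. All 26 other interferon-inducible genes, whose directions were known beforehand, lie below -1, and the other CXC ligands lie on both sides of 0.

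Genes near the chemokine loci are given by their counts only. Of 14 other tested genes that start within 500 kb of the Cxcl9, Cxcl10 and Cxcl11 cluster, 2 were called lower and none higher, with a median log2 fold change of -0.17, where 11.3% of all tested genes were lower. These were Stbd1 (-2.64), which passed the filter only through PBS, and Shroom3 (-2.32), whose mean with cisplatin was 0.957 FPKM. Around Cxcl16, 31 genes were tested and Zmynd15 was the only one called lower, while Alox15 (1.75) and Clec10a (1.09), the latter past the filter only through cisplatin, were called higher. Around Cxcl14, Tgfbi (1.81) and Tifab (1.07) were called higher of 5 tested, where 4.67% of all tested genes were. No tested gene started within that distance of Cxcl12.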

How the data were processed

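Poly-T selected RNA of 6 samples from co-culture was sequenced. The authors deposited 1 table of FPKM per gene and library with gene lengths and coordinates. The submitters' processing notes name fastp, HISAT2 2.0.5, featureCounts 1.5.0-p3 and mm10, whereas the study's methods name LifeScope for alignment and counting. Strand use in counting is not stated in the sources used here. Coordinates of all 6 genes equal those in GENCODE M21 (GRCm38).

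Multiplied by length, FPKM values came out as whole multiples of 1 read (within 0.05) for 100% of values under 200 reads, so reads were recovered. The deposited unit being FPKM, log2(FPKM + 1) was fitted with limma 3.58.1 (R 4.3.3, eBayes with a trend) over 13441 genes with at least 1 FPKM in at least 3 libraries, with Benjamini-Hochberg adjustment over all of them. This scale understates changes of low genes. Low genes were therefore also tested with limma voom on recovered reads.

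Groups came from the treatment labels. The study's methods mention biological replicates but do not say whether these libraries came from separate cultures. The p-values thus measure the spread between these libraries. Members and lists were chosen with earlier results of these data known. The genes named were fixed by a rule: all members, receptors, proteases and CXC ligands, the largest called changes of other lists (up to 4 per direction), genes overlapping or within 500 kb of a member, and the 3 nearest profiles. Other genes were chosen after their values were seen (the interferon receptors, Ifng, Ifnb1, Mx1, and the marker genes named for stromal cells and lymphocytes). For the loci, the called neighbours are named. Some genes that the rule would name are not reported here. The procedure was tested on simulated data. No label says whether libraries with the same replicate number were paired, and such libraries did not deviate together.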

Additional observations from a re-analysis of the deposited data

How the results depend on the processing

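Cxcl10 kept its direction and its call in all 20 settings tried, with log2 fold changes from -4.30 (scaling by Y-linked genes) to -3.32 (quantile normalisation). Leaving out each library in turn gave -3.47 to -3.37 for Cxcl10, -0.83 to -0.73 for Cxcl16, -5.97 to -4.59 for Cxcl9, -5.87 to -4.25 for Cxcl11 and -1.29 to -0.77 for Cxcl12, which passed the fold threshold without PBS replicate 2 (-1.01) or cisplatin replicate 1. Cxcl16 passed with scaling by Y-linked genes (-1.73) or by the adjusted p alone (-0.80). With no filter, log2(FPKM + 1) gave -0.71 for Cxcl9 and -0.86 for Cxcl11, short of the fold threshold on a scale whose pseudocount of 1 is above their levels in all libraries but PBS replicate 3 of Cxcl11, and -0.29 for Cxcl12 (limma, adjusted p = 0.0622). Cxcl12 passed on reads with scaling by Y-linked genes (-1.97) and by the adjusted p alone (-0.99).

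Against 1 member called lower, scaling by Y-linked genes gave 2, the adjusted p alone 2 and voom with a mean of 10 reads 3, of which Cxcl9 and Cxcl11 passed its filter only through the PBS libraries. Against 1514 genes called lower, these settings gave 5181, 4721 and 2402, and limma treat 982. Against 628 called higher they gave 85, 4424 and 1651, limma treat 240, a pseudocount of 0.1 gave 973 and voom on the same genes 1227. Leaving out 1 library gave 1513 to 1531 lower and 622 to 671 higher. Over all pathway and marker lists 45 genes were called lower and 17 higher, where 11.3% and 4.67% of all tested genes were. The 45 include the 26 interferon-inducible genes, whose directions were known, and Ackr3 and Cx3cl1, which passed the filter only through PBS. The 17 include Mertk, Mrc1 and Flt3, which passed it only through cisplatin, so both counts are a description. The 17 became 5 with scaling by Y-linked genes, 36 by the adjusted p alone and 11 with limma treat, and 15 to 18 with 1 library left out. Quantile normalisation moved the median of all genes to 0.10. The difference in the Cxcl12 to Cxcl16 log2 ratio, -0.24, reversed to 0.51 when 1 was added to each FPKM, and ran from -0.50 to -0.093 with 1 library left out. That of Cxcl16 to Cxcl10 ran from 2.73 to 2.87. Unless a construction is named, the cause was not tested.

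A replicate block in the fit gave 1515 genes lower and 625 higher, and there Cxcl10 was at -3.41 and Cxcl16 at -0.80, and on reads Cxcl9 was at -4.98, Cxcl11 at -5.04 and Cxcl12 at -0.92. No member's call changed. Same-numbered libraries did not deviate together, with correlations of deviations from the group means of -0.10, -0.086 and -0.024.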
